A study of Mus musculus with 7 samples.

Results

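The miRNAs of motoneurons and V2a interneurons were compared in embryonic mouse spinal cord at E12.5, with 1 small RNA library for each population. Every miRNA that reached 10 TPM (transcripts scaled to a library sum of 1000000) in at least 1 of the 2 libraries was included, which gave 510 of the 1908 mature miRNAs in the table (26.7%). Motoneurons, the output neurons that innervate muscle, were the GFP-positive cells sorted from Hb9::gfp embryos. V2a interneurons, excitatory premotor neurons of the ventral cord, were the tdTomato-positive cells of Chx10::cre;Rosa26::LSL::tdTomato embryos. V3 interneurons, tdTomato-positive cells of Sim1::cre;Rosa26::LSL::tdTomato embryos at E12.5, gave 1 further library whose values stand beside the others for reference only. Hb9::gfp embryos at E10.5 gave 2 libraries of GFP-positive and 2 of GFP-negative cells, which were used as a second measure. No other allele or treatment is named in the labels.

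The populations are defined by their reporters. GFP from the Hb9 promoter marks cells that use that promoter when they are sorted, whereas Cre recombination marks every cell that has expressed Chx10, or descends from one, whatever it expresses later. Genotype, reporter, library and cell type differ together between the 2 E12.5 libraries and cannot be told apart. In sorted bulk cells, fewer cells of a type and less RNA per cell cannot be told apart either. The files hold miRNAs only, so the mRNA markers of these neurons were not measured here, and the series title names miR-218 as the miRNA specific to motoneurons. The motoneuron library held 3603500 reads, the V2a library 4605324 and the V3 library 4270037, so 1 read of a miRNA of 22 nt was worth 0.281, 0.222 and 0.24 TPM. With 1 library a side, all E12.5 differences are descriptions of 2 libraries with no replicate check and no test. Intervals given for ratios are exact 95% binomial (Clopper-Pearson) intervals, which cover counting error only.

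A miRNA is cut from a hairpin whose 5′ and 3′ arms can each give a mature strand, named 5p and 3p. The strand loaded into Argonaute recognises target mRNAs mainly through its seed, the short stretch that starts at its second base, and represses them. Hairpins often lie in introns of protein-coding genes or in clusters made from 1 long transcript, and miRNAs with the same seed are grouped as a family because they can pair with the same sites.

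The sequences below are those on which the difference between the 2 populations turns. All are mature strands from RefSeq (GRCm38.p6), 5′ to 3′, with the seed (bases 2 to 8) in capitals. The first set holds strands higher in the motoneuron library.
miR-218-5p: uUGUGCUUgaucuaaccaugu
miR-218-2-3p: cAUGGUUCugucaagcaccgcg
miR-139-5p: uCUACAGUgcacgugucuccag
miR-139-3p: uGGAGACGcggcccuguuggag
miR-490-3p: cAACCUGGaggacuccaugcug
miR-129-5p: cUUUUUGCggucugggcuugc
miR-369-3p: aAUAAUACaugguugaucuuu

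The second set holds strands higher in the V2a library, with miR-410-3p shown because it has the seed of miR-344d-3p and miR-344e-3p.
miR-344e-3p: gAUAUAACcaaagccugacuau
miR-344d-3p: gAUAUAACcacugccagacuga
miR-410-3p: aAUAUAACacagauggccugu
miR-344h-3p: gGUAUAACcaaagcccgacugu
miR-216a-5p: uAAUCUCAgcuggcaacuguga
miR-216b-5p: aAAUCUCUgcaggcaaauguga
miR-217-5p: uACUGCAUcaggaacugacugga

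The third set holds the abundant strands that, apart from miR-218-5p, moved most in TPM. Of these, miR-99b-5p went the other way from miR-99a-5p and miR-100-5p, which have its seed, while miR-10a-5p and miR-10b-5p were both lower in motoneurons.
miR-10a-5p: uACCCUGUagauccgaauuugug
miR-10b-5p: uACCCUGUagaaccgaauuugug
miR-99a-5p: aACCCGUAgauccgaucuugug
miR-100-5p: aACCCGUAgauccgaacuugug
miR-99b-5p: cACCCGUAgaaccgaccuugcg
miR-615-3p: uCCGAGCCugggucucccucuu

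With positions counted from 1 at the 5′ end and the first-named strand's base first, miR-10a-5p and miR-10b-5p differed by U12A and miR-99a-5p and miR-100-5p by U16A, all outside the seed. miR-99b-5p differed from miR-99a-5p by A1C, U11A, U16C and U21C. miR-344d-3p differed from miR-344e-3p by A11C, A12U, U16A, A21G and U22A and so kept its seed. miR-344h-3p differed from miR-344e-3p by A2G, U16C and A21G, the first of which lies in the seed. miR-216b-5p differed from miR-216a-5p by U1A, A8U, U11A and C17A, so the last base of the seed differed.

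Most miRNAs had like levels in both libraries. Ratios were taken as log2((motoneuron TPM + 1)/(V2a TPM + 1)), a scale that understates the ratio of low miRNAs. Of the 510 miRNAs, 324 (63.5%) lay within 2-fold, and the levels had a Pearson correlation of 0.916 on the log scale and a Spearman correlation of 0.873 across these miRNAs, which share the 2 libraries and are not independent replicates. The median log2 ratio was -0.16, with quartiles at -0.90 and 0.54, and 224 miRNAs lay above 0 and 286 below. At least 4-fold, 23 miRNAs were higher in motoneurons (4.51% of 510) and 30 were lower (5.88%). At least 2-fold, 75 were higher (14.7%) and 111 lower (21.8%), and at least 8-fold, 9 were higher (1.76%) and 11 lower (2.16%).

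Scaling by the median of ratios gave 24 higher and 28 lower at 4-fold, with 86 and 99 at 2-fold. TMM factors gave 28 and 20 at 4-fold and 102 and 82 at 2-fold, while scaling to totals that leave out the 5 most abundant miRNAs gave 19 and 60, with 48 and 185. These scalings moved the median of all 510 log2 ratios by 0.10, 0.27 and -0.45, so which direction had more miRNAs depended on the scaling. Shifts of this size could not reverse a miRNA past 4-fold. Of the 53 past 4-fold, 39 stayed so under every scaling.

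The spread of the ratio fell with abundance. Below a geometric mean of 30 TPM, 221 miRNAs had an SD of log2 ratios of 1.45 and included 15 of the higher and 21 of the lower miRNAs. At 1000 TPM and above, 67 miRNAs had an SD of 0.87, and only miR-218-5p and miR-369-3p were 4-fold higher and miR-216b-5p 4-fold lower. The 384 miRNAs at 10 TPM or more in both libraries held 8 higher and 8 lower miRNAs. The other 15 higher ones were under 10 TPM in V2a and the other 22 lower ones under 10 TPM in motoneurons, so the abundance rule let them in through 1 library. Just inside that rule were miR-1194 and miR-377-3p, whose higher value was 10.01 TPM, and just outside were miR-337-3p and miR-1843a-5p at 9.98.

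**Figure D1:**
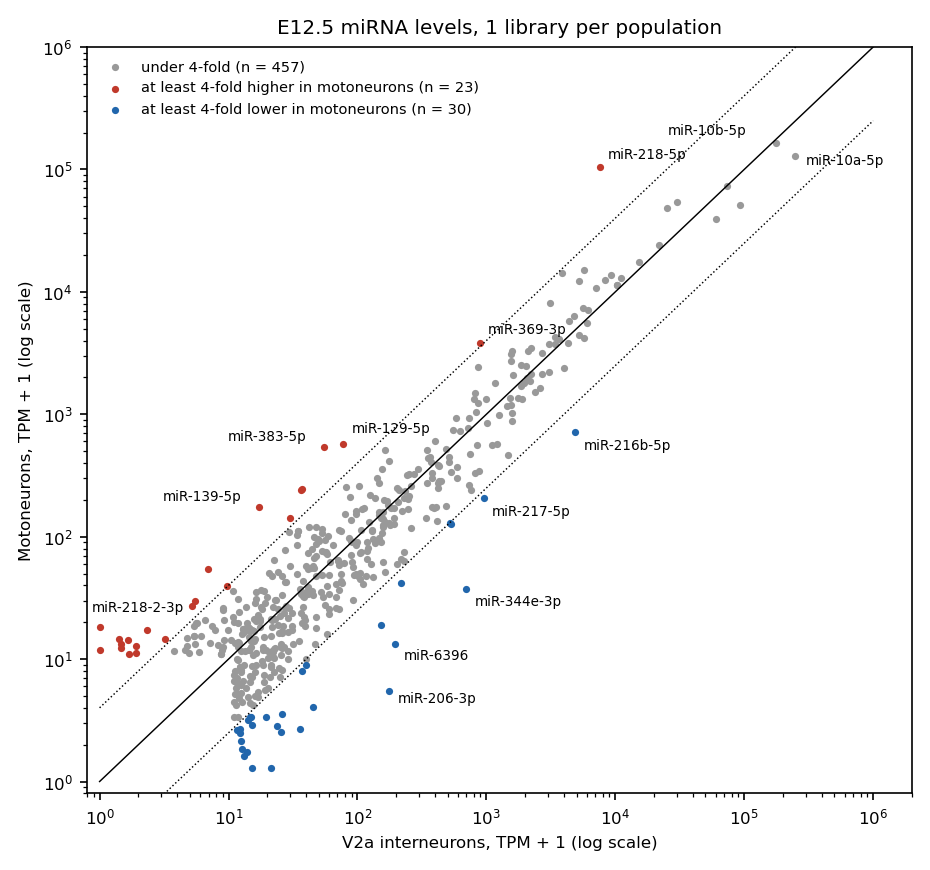
Level of each of the 510 miRNAs in the motoneuron library (vertical) against the V2a library (horizontal), as TPM + 1 on log axes, with equality as a solid line and 4-fold as dotted lines. Most points follow the solid line, the 23 higher (red) and 30 lower (blue) miRNAs are mostly of low abundance, and miR-218-5p, miR-369-3p and miR-216b-5p are past 4-fold at 1000 TPM and above.

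miR-218-5p, the miRNA of the series title, made up 104198 TPM of the motoneuron library, 7558 of V2a and 7282 of V3. The motoneuron library was 13.8-fold above the V2a library (interval 13.6 to 13.9), a log2 ratio of 3.78. Its strand partner miR-218-2-3p had 17.4 TPM in motoneurons against none in V2a and 0.72 in V3, which is 62 reads against none in V2a and at least 26.1-fold higher when V2a is set to the floor of 3 reads. This passenger strand comes from Mir218-2 (chromosome 11, 35616816 to 35616925, plus strand, in an intron of the axon guidance gene Slit3). The 5p strand can also come from Mir218-1 (chromosome 5, 48223942 to 48224051, plus strand, in an intron of Slit2). Together the 2 libraries differed in miR-218-5p by 96640 TPM, the largest excess of any miRNA in the motoneuron library over V2a.

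Both strands of Mir139 and the 3p strand of Mir490 were also high in motoneurons. miR-139-5p had 173 TPM in motoneurons against 16.2 in V2a and 11.3 in V3, which is 10.6-fold above V2a (interval 8.34 to 13.8). miR-139-3p was at 26.2, 4.23 and 1.44 TPM in the same order. miR-490-3p was at 29.0, 4.45 and 2.64 TPM. Each was thus higher in motoneurons than in either interneuron library. However, miR-139-3p and miR-490-3p reached 10 TPM only in the motoneuron library and not in V2a, so they had to lie above V2a. Mir139 lies in an intron of the phosphodiesterase gene Pde2a (chromosome 7, 101475376 to 101475443, plus strand), and Mir490 is intronic to Chrm2, which encodes a muscarinic acetylcholine receptor (chromosome 6, 36421742 to 36421825, plus strand).

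Several neuronal miRNAs were higher in motoneurons than in V2a. Of 19 strands in a list of miRNAs enriched in neurons, 13 reached 10 TPM in either library, 12 of these lay above 0 in log2 ratio, 7 were at least 2-fold and 4 at least 4-fold higher, and none was 2-fold lower. Their median log2 ratio was 1.14, against -0.16 over all 510. Of the 13, 5 reached 10 TPM only in the motoneuron library and so had to lie above V2a. Among the other 8, at 10 TPM or more in both libraries, 7 lay above 0, 3 were at least 2-fold and 1 at least 4-fold higher, and the median was 0.87. miR-129-5p, a brain-enriched miRNA, was at 575 TPM in motoneurons against 76.9 in V2a and 147 in V3 (7.48-fold, interval 6.65 to 8.43). miR-129-2-3p was at 13.3, 0.67 and 0.20 TPM, and both strands share reads with near-identical entries of the table. The most abundant members differed little. miR-128-3p had 13085 TPM in motoneurons and 11007 in V2a, and miR-124-3p, the classic neuron-specific miRNA, had 157 and 147.

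The activity-linked miRNA miR-132-3p was at 12.4 TPM in motoneurons against 0.47 in V2a and 3.13 in V3, which is 44 against about 2 reads and a ratio of 26.2 with an interval of 7.26 to 237. Its 5p strand was at 19.1 and 10.01 TPM. miR-128-1-5p had 53.7 TPM in motoneurons and 5.95 in V2a, but 366 in V3, so motoneurons lay between the 2 interneuron libraries. The strand from the other miR-128 hairpin, miR-128-2-5p, has the same seed and was at 30.1, 10.9 and 0.23 TPM. miR-128-1-5p made up 64.1% of this seed in motoneurons, 35.4% in V2a and 99.94% in V3.

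Further miRNAs past 4-fold had no shared family. miR-383-5p was at 539 TPM in motoneurons against 53.8 in V2a and 167 in V3 (10.02-fold, interval 8.75 to 11.5). miR-1298-5p, from an intron of the serotonin receptor gene Htr2c, was at 243, 35.8 and 62.0 TPM. Both strands of Mir204, in an intron of the ion channel gene Trpm3, were higher, with miR-204-5p at 142, 28.9 and 52.4 TPM and miR-204-3p at 10.02, 0.70 and 5.04. The latter passed the abundance rule only through the motoneuron library and so had to lie above V2a. For miR-383-5p, miR-1298-5p and both Mir204 strands, V3 lay between the other 2 libraries. miR-3059-5p had 11.0 TPM in motoneurons and 0 in both interneuron libraries, at least 16.4-fold higher than the floor in V2a. The rest of the 23 were miR-23b-5p, miR-299a-5p, miR-302d-3p, miR-674-5p, miR-6948-3p, miR-7050-5p and let-7c-1-3p, all at 38.3 TPM or below in both libraries, and miR-196b-5p and miR-369-3p, which belong to groups described below. miR-302d-3p shares reads with the other miR-302 entries, and the sum of the 4 was 71.9 TPM in motoneurons and 30.4 in V2a, a log2 ratio of 1.22 and so under 4-fold.

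**Figure D2:**
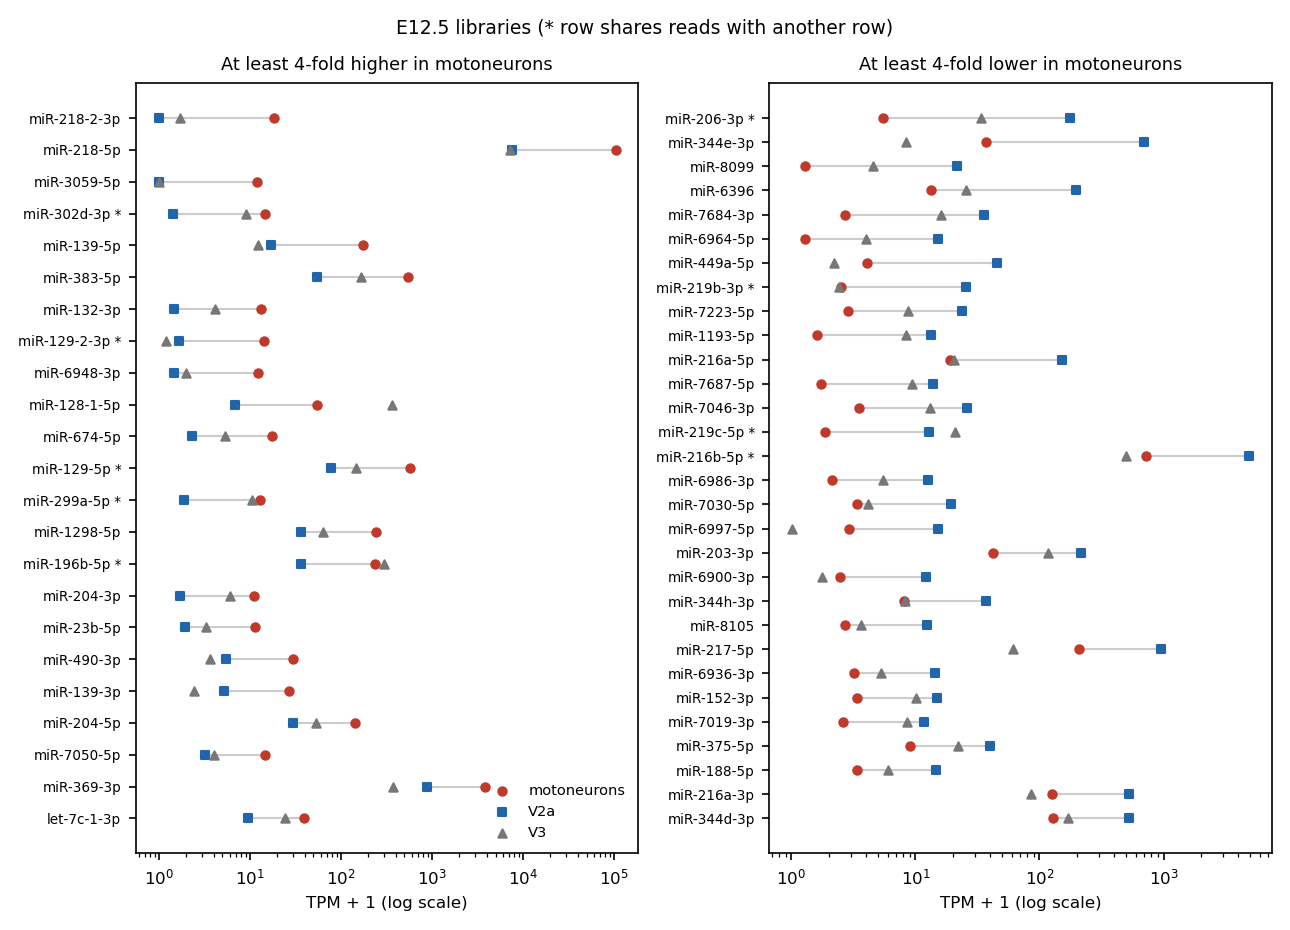
Levels of the 23 higher (left) and 30 lower (right) miRNAs in motoneurons (red circles), V2a (blue squares) and V3 (grey triangles), as TPM + 1 on a log axis, 1 library each, with grey lines joining motoneurons and V2a. On the right V2a is the highest of the 3 libraries for every miRNA but miR-219c-5p, and miR-128-1-5p and miR-196b-5p on the left are highest in V3.

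Among miRNAs lower in motoneurons than in V2a were 2 groups of related strands, miR-216 with miR-217, and miR-344. miR-216a, miR-216b and miR-217 are known from the pancreas, and their 3 hairpins are neighbours on chromosome 11. miR-216b-5p was at 722 TPM in motoneurons against 4903 in V2a and 495 in V3, so V2a was 6.79-fold above motoneurons (interval 6.52 to 7.08), and it shares reads with miR-216c-3p. miR-217-5p was at 207, 951 and 59.8 TPM. miR-216a-5p was at 18.01, 151.9 and 19.5 TPM and miR-216a-3p at 126, 529 and 84.2. All 4 strands that reached 10 TPM, of 8 annotated, were 4-fold lower in motoneurons than in V2a, with a median log2 ratio of -2.48, and V2a held the highest level of each. Mir216b lies at 28746191 to 28746276, Mir216a at 28757012 to 28757083 and Mir217 at 28763728 to 28763835, all on the plus strand, the last 2 in introns of the lincRNA Gm12082.

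The miR-344 hairpins form a rodent family on chromosome 7. Of 19 annotated strands 6 reached 10 TPM, all 6 were below 0 in log2 ratio, 4 were at least 2-fold and 3 at least 4-fold lower in motoneurons, and the median was -1.55. Of the 6, miR-344h-3p reached 10 TPM only in V2a and so had to lie below 0. The other 5 were also below 0, with 3 at least 2-fold and 2 at least 4-fold lower and a median of -1.09. miR-344e-3p was at 36.3 TPM in motoneurons against 699 in V2a and 7.45 in V3, so V2a was 19.3-fold above motoneurons (interval 16.2 to 23.2). miR-344d-3p was at 129, 521 and 169 TPM and miR-344h-3p at 7.04, 36.3 and 7.21. The most abundant member, miR-344-3p, differed less, at 1031 TPM in motoneurons against 1572 in V2a and 1200 in V3. Mir344e, on the minus strand (61735537 to 61735602), is intronic to the lincRNA A230057D06Rik.

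Because miR-410-3p of the Dlk1-Dio3 region has the seed AUAUAAC of miR-344d-3p and miR-344e-3p, the source of that seed differed between the libraries. This family was chosen after its values were seen. miR-410-3p was at 276 TPM in motoneurons against 147 in V2a and 143 in V3. It made up 62.6% of the seed in motoneurons, 10.7% in V2a and 44.9% in V3. miR-344e-3p made up 8.23%, 51.1% and 2.33%. The sum over the 3 strands was 441 TPM in motoneurons against 1367 in V2a and 319 in V3, so the seed was lower in motoneurons than in V2a although its main strand there was higher.

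miR-206-3p had the lowest ratio of all, at 4.50 TPM in motoneurons against 175 in V2a and 32.9 in V3 (log2 ratio -4.995). It is known as a skeletal muscle miRNA and shares reads with the miR-1 entries, of which miR-1a-3p went the other way, and the sum of the 3 was 123 TPM in motoneurons and 216 in V2a, a log2 ratio of -0.81. miR-449a-5p, known from ciliated cells, was at 3.10, 44.0 and 1.20 TPM, and its hairpin lies in an intron of Cdc20b. miR-203-3p, known from epidermis, was at 41.1, 216 and 116 TPM. miR-6396 was at 12.3, 196 and 24.5 TPM. Below 100 TPM in both libraries were miR-375-5p (7.99 TPM in motoneurons and 38.9 in V2a), miR-152-3p (2.36 and 14.0), miR-188-5p (2.36 and 13.8), miR-1193-5p (0.62 and 12.2), miR-219b-3p (1.52 and 24.5), miR-219c-5p (0.85 and 11.7) and the remaining miRNAs of the 30, all with numbers of 5000 and above in their names, such as miR-8099 (0.30 and 20.5) and miR-7684-3p (1.69 and 34.6). miR-219b-3p and miR-219c-5p share reads with other miR-219 entries, and the sums over the shared entries were 23.6 and 35.4 TPM for the former and 150 and 158 TPM for the latter. The lower level of these 2 entries was thus not seen at that size in the sums.

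Apart from miR-218-5p, large differences in TPM were found in families of the Hox clusters and their relatives. Hox genes give cells along the cord their rostrocaudal identity, and miR-10, miR-196 and miR-615 hairpins lie among them. miR-10a-5p was at 128052 TPM in motoneurons against 249133 in V2a and 220124 in V3, a difference of -121081 TPM between motoneurons and V2a. miR-10b-5p differed by a log2 ratio of only -0.10, and since the 2 strands differ at 1 base and share reads, their sum is the safer value. That sum was 292455 TPM in motoneurons and 425533 in V2a (log2 ratio -0.54), or 29.2% and 42.6% of all miRNA, with 38.8% in V3. miR-615-3p was at 51662, 92772 and 96727 TPM. For both, V3 lay near V2a and motoneurons were lowest.

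The miR-196a-5p and miR-196b-5p strands went the other way, while miR-196a-1-3p had 89.8 TPM in motoneurons and 98.8 in V2a (log2 ratio -0.14). miR-196a-5p was at 8165 TPM in motoneurons against 3113 in V2a and 5086 in V3. miR-196b-5p was at 238, 35.5 and 297 TPM, and the sum of the 2, which share reads and the seed, was 8403, 3149 and 5383 TPM. Mir196b lies at 52230081 to 52230165 on chromosome 6, minus strand, in an exon of Hoxa9. Over the 9 Hox-cluster strands at 10 TPM or more the median log2 ratio was -0.38, with 2 at least 2-fold higher and 1, miR-10a-3p, at least 2-fold lower (340 TPM in motoneurons and 873 in V2a).

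Motoneurons held 23447 TPM more of miR-99a-5p than V2a and 23094 more of miR-100-5p, and the sum of both was 101851 TPM in motoneurons against 55310 in V2a and 65648 in V3. miR-99b-5p, of the same seed, was at 39655, 60904 and 51306 TPM, lower in motoneurons. The whole seed was thus 14.2% of miRNA in motoneurons and 11.6% in V2a, a log2 ratio of 0.28 that is smaller than the shift of -0.45 with totals without the 5 most abundant miRNAs. These hairpins lie in clusters with let-7 and miR-125 hairpins. In the Mir99ahg cluster (chromosome 16, 77598936 to 77599750), miR-99a-5p and let-7c-1-3p had log2 ratios of 0.83 and 2.02. In the Spaca6 cluster (chromosome 17, 17830194 to 17830879), which makes miR-99b, let-7e and miR-125a, 2 of 6 strands lay above 0 and the median was -0.64. let-7e-5p had 2403 TPM in motoneurons and 4008 in V2a. miR-125b-5p was at 15094 and 5695 TPM.

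Few seeds dominated both libraries. Of 510 miRNAs, 449 matched a RefSeq mature sequence, with 389 seeds, of which 36 were shared by at least 2 strands. The 5 most abundant seeds of each library held 66.3% of TPM in motoneurons against 73.2% in V2a and 80.2% in V3. The miR-218 seed took 10.4% in motoneurons, 0.756% in V2a and 0.728% in V3. miR-9-5p, a miRNA of neural progenitors and young neurons, took 7.33% in motoneurons and 7.39% in V2a but 16.03% in V3. Summed by seed, 19 seeds were 4-fold higher and 26 lower, close to the counts by strand.

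**Figure D3:**
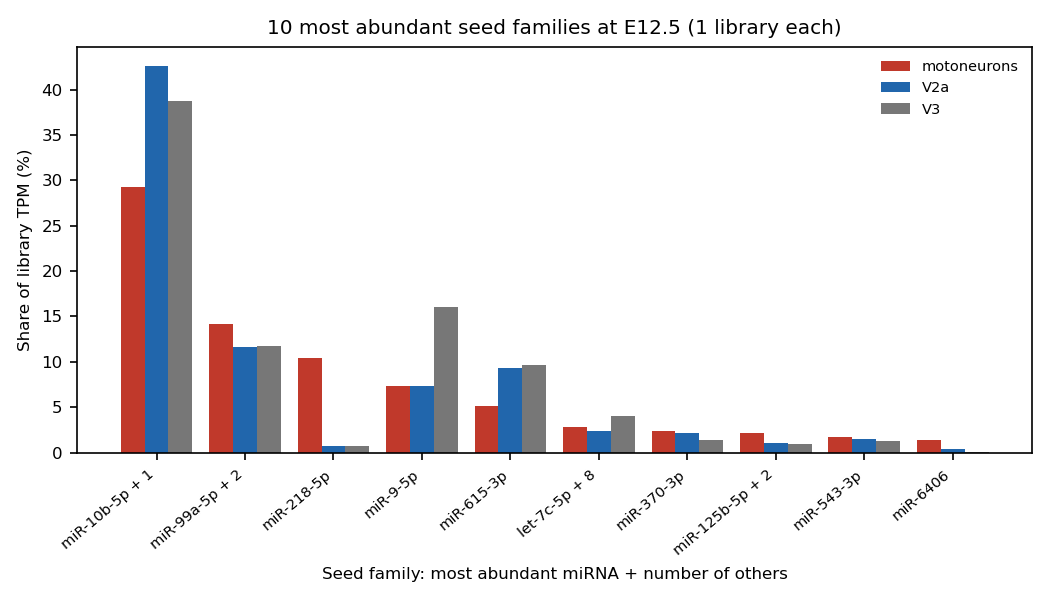
Share of each E12.5 library's TPM (vertical, %) in the 10 most abundant seed families, named by their most abundant miRNA and the number of others, for motoneurons (red), V2a (blue) and V3 (grey), 1 library each. The miR-10 family is 29.2% of motoneurons against 42.6% of V2a, and the miR-218 bar is visible mainly in motoneurons, at 10.4%.

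The imprinted Dlk1-Dio3 region on chromosome 12 carries a large group of miRNAs of placental mammals, made from the maternal copy and expressed in neurons. Of its Meg3 and Rian strands, 23 of 35 reached 10 TPM, 17 were above 0, and the median log2 ratio was 0.57, with 6 at least 2-fold higher and 2 lower, beside 224 of 510 above 0, 14.7% higher and 21.8% lower among all miRNAs. Of the 20 at 10 TPM or more in both libraries, 15 were above 0, 4 were 2-fold higher and 1 lower. miR-370-3p had 24028 TPM in motoneurons and 21807 in V2a. miR-127-3p was at 13758 TPM in motoneurons against 9261 in V2a and 7750 in V3. miR-433-3p was at 12206, 5261 and 5320 TPM, miR-434-3p at 3308, 1579 and 1220, and miR-770-3p at 3097, 1551 and 1252. Of the strands in the Mirg list, 44 of 77 reached 10 TPM and 35 were above 0 (33 of the 40 at 10 TPM or more in both libraries). Their median of 0.44 became -0.02 with totals without the 5 most abundant miRNAs. The list also counts miR-1247-5p (64.6 TPM in motoneurons and 218 in V2a), which lies outside Mirg, in an exon of Dio3os on the minus strand. miR-543-3p was at 17620, 15275 and 12781 TPM and miR-541-5p at 10849, 7062 and 5568. The summed level was 65816 TPM in motoneurons and 46697 in V2a for Meg3 and Rian, and 72181 and 56967 for the Mirg list.

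Within Mirg the strands did not move as 1 unit. miR-369-3p, in an exon of Mirg (109743418 to 109743496), was at 3847 TPM in motoneurons against 887 in V2a and 374 in V3 (4.34-fold, interval 4.18 to 4.50), while its partner miR-369-5p was at 1224 and 864 TPM. The log2 ratio of 5p over 3p was therefore -1.65 in motoneurons and -0.04 in V2a. miR-299a-5p was higher by 2.75 on the log2 scale, but by 0.71 when summed with the entries with which it shares reads, chiefly miR-299a-3p (75.9 TPM in motoneurons and 52.3 in V2a). miR-1193-5p had a log2 ratio of -3.03, whereas its 3p strand had 25.6 TPM in motoneurons and 21.2 in V2a.

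Strand use was compared over 52 hairpins of a single locus with both strands at 10 TPM or more in both libraries. The log2 ratios of the 5p and the 3p strands had a Pearson correlation of 0.525 (Spearman 0.467) across hairpins, and 40 of 52 hairpins had the same sign in both strands. In 12 hairpins the 5p to 3p ratio differed by at least 2-fold between the libraries, and in 6 (Mir30a, Mir154, Mir330, Mir380, Mir384 and Mir7087) the more abundant strand was not the same. Several of these 6 were near level in 1 library. The 5p and 3p strands had 59.0 and 59.1 TPM in Mir7087, 191 and 195 in Mir30a and 94.6 and 97.1 in Mir380 in motoneurons. In V2a they had 55.1 and 60.7 in Mir384 and 12.7 and 14.2 in Mir154. Both Mir30a strands also share reads with other entries. The largest shifts, besides Mir369 and a Mir196a-1 pair whose 5p strand has several loci, were in Mir667, Mir342 and Mir149. miR-667-3p had 108 TPM in motoneurons and 28.2 in V2a, with its 5p strand level at 236 and 231. miR-342-5p was at 174 and 402 TPM, with its 3p strand at 42.0 and 26.96. miR-149-5p was at 2419 and 856 TPM, with its 3p strand at 36.5 and 35.0.

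The remaining families are given by their counts and medians. All 5 miR-135 strands were below 0, with 3 at least 2-fold lower in motoneurons, and miR-135a-5p was at 464 TPM in motoneurons against 1473 in V2a and 1186 in V3. Of these 5, 1 reached 10 TPM only in V2a, and 2 of the other 4 were at least 2-fold lower, with a median of -0.97. All 6 strands of miR-130 and miR-301 were below 0 with none past 2-fold. Neural progenitor miRNAs had a median of -0.32, with miR-92b-3p at 1523, 2368 and 4775 TPM. In the miR-17~92 group and its paralogs, known from dividing cells, 13 of 19 strands were below 0, the median was -0.35, and 2 were 2-fold higher and 1 lower. Of the 16 at 10 TPM or more in both libraries, 4 were above 0, the median was -0.40 and none was past 2-fold. Medians between -0.42 and -0.32 were found for the groups of miR-15 and miR-16, of miR-26 and of miR-148 with miR-152, and that of miR-34 with miR-449 stood at -0.76. For miR-15 and miR-16, however, 3 of 8 strands reached 10 TPM only in V2a and so had to lie below 0. The other 5, at 10 TPM or more in both libraries, had a median of 0.34, with 3 above 0. For miR-34 with miR-449, the 3 strands at 10 TPM or more in both libraries had a median of -0.43. For let-7 (0.20), miR-7 (0.08), miR-23, miR-27 and miR-24 (0.36), miR-99 and miR-100 with miR-125 (0.41), miR-30 (-0.09) and miR-181 (-0.16) the sign of the median changed under at least 1 other scaling. Of 80 strands of the rodent repeat families 10 reached 10 TPM, with a median of 0.98. At least 2-fold, 5 were higher and 1, miR-669l-5p, lower. Of the 10, 4 reached 10 TPM only in motoneurons and 1 only in V2a. The other 5 had a median of 0.40, with 1 at least 2-fold higher. Over all 80 strands the sums were 1523 TPM in motoneurons and 1506 in V2a.

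**Figure D4:**
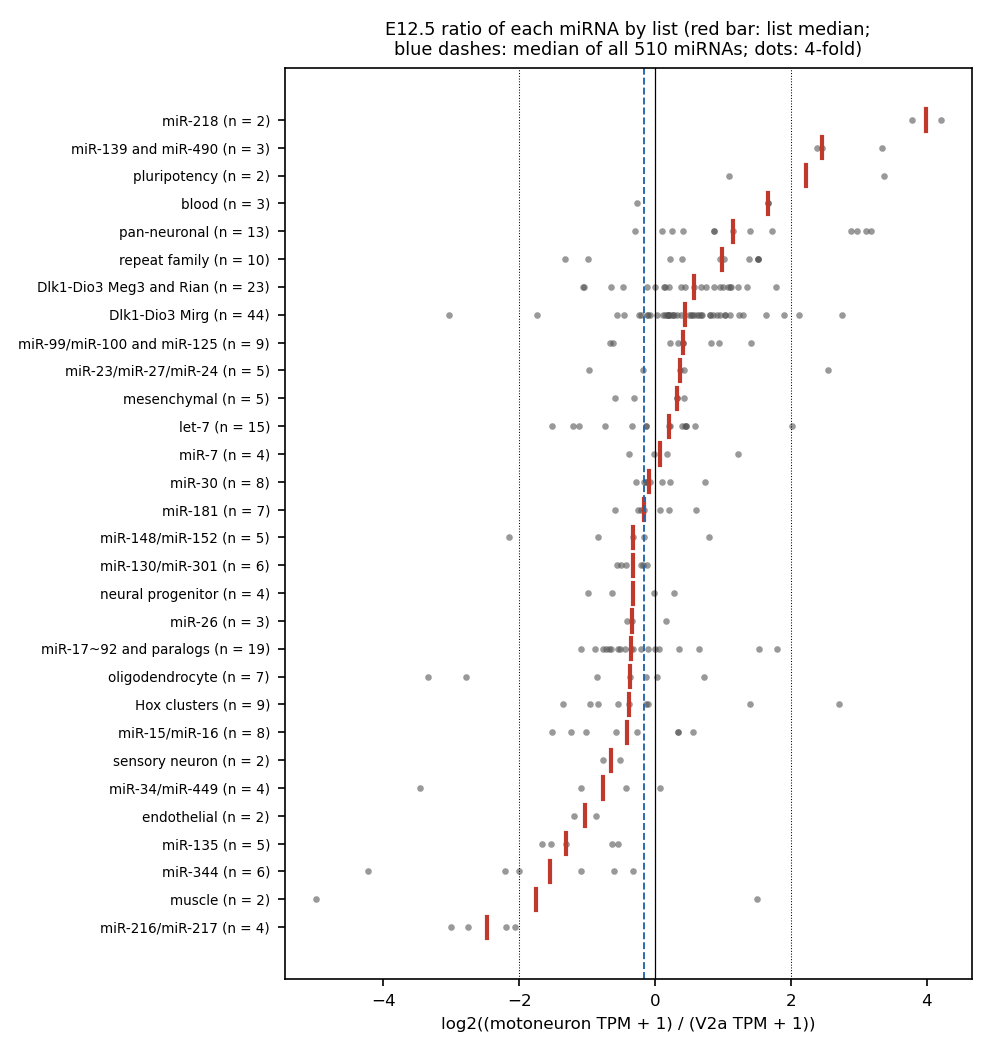
Log2 ratio of motoneurons over V2a (horizontal) for every miRNA at 10 TPM or more in each list (grey points), with list medians as red bars, the median of all 510 as a blue dashed line and 4-fold as dotted lines. The miR-216 with miR-217, miR-344 and miR-135 points all lie below 0, and the miR-218 and miR-139 with miR-490 points all above 2. Strands under 10 TPM in V2a, such as miR-218-2-3p, miR-139-3p and miR-490-3p, had to lie above 0, and those under 10 TPM in motoneurons below 0. The miR-218-1-3p strand, under 10 TPM in both libraries, has no point.

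Markers of most other cell types were present at low levels in both libraries. Blood miRNAs summed to 239 TPM in motoneurons against 91.5 in V2a and 24.3 in V3, with 3 of 14 strands at 10 TPM or more, and miR-451a, which defines red cells, was at 0 in motoneurons and V2a. Endothelial miRNAs summed to 181, 406 and 175 TPM (2 of 4 strands), nearly all of it miR-126a-3p. Mesenchymal miRNAs summed to 199, 249 and 310 TPM (5 of 11), muscle miRNAs to 133, 231 and 71.2 (2 of 17), epithelial miRNAs to 62.8, 239 and 124 (1 of 14, miR-203-3p), and sensory neuron miRNAs to 110, 181 and 194 (2 of 6). Pluripotency miRNAs summed to 79.1, 36.7 and 54.4 TPM (2 of 20). Oligodendrocyte-lineage miRNAs summed to 5796, 6428 and 4080 TPM (7 of 9), so these were not at trace level. The endothelial, muscle and epithelial sums were higher in V2a and the blood sum in motoneurons, and each of these differences rested on 1 or 2 entries. The endothelial one rested on miR-126a-3p, at 172 TPM in motoneurons and 395 in V2a. Without miR-206-3p the muscle sum was 128 TPM in motoneurons and 56.3 in V2a. Most of that was miR-1a-3p (118 and 41.2 TPM), which shares reads with miR-206-3p, so this change of direction depends on how those reads were split. Without miR-203-3p the epithelial sum was 21.8 and 23.2 TPM, a small gap. The blood sum without miR-486-5p and miR-3107-5p, which share reads and have the same values (109.6 TPM in motoneurons and 33.9 in V2a each), was 19.4 and 23.7 TPM. The part of such cells in the differences between libraries was not tested.

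Base composition moved weakly with the ratio. Over 449 strands with a sequence, the GC content and the log2 ratio had a Pearson correlation of -0.164 and a Spearman correlation of -0.176, and the median GC content was 52.4% in 22 higher, 53.6% in 30 lower and 50% in the other 397 strands. Its part in the result was not tested.

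The E10.5 libraries gave a replicated measure that did not choose these miRNAs, against a different comparator, namely all GFP-negative cells of the cord. The labels do not say whether the replicates are separate litters or separate sorts. The p-values therefore measure only how far these 4 libraries spread, and that spread may be technical. Of 492 miRNAs tested there with limma, 57 were higher (11.6%) and 151 lower (30.7%) in motoneurons at an adjusted p under 0.05. Of the 510 miRNAs, 358 were tested, and 43 were higher and 108 lower. Of the 23 miRNAs 4-fold higher than V2a at E12.5, 11 were tested at E10.5, and 4 were higher and 2 lower. Of the 30 that were 4-fold lower than V2a, 11 were tested, and 3 were higher and 3 lower. The filter on low E10.5 values left the rest untested.

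miR-218-5p had 177885 and 200305 RPM in the E10.5 motoneuron libraries and 6623 and 7315 in the GFP-negative ones, higher by 4.76 on the log2 scale (standard error 0.14, limma adjusted p = 4.236e-06). miR-218-2-3p had 68.5 and 46.6 RPM against 0 and 5.57 (4.49, limma adjusted p = 0.006252), and without either motoneuron replicate it was under the filter. miR-139-3p, with 32.4 and 28.4 against 9.0 and 7.43 RPM, rose by 1.77 (limma adjusted p = 0.0124), but missed the threshold without either GFP-negative replicate (0.103 and 0.0965) and when only miRNAs at 0 throughout were removed (0.0538). miR-196b-5p, with 776 and 809 against 430 and 362 RPM, rose by 1.003 (limma adjusted p = 0.006766). These 4 strands were higher in motoneurons than in V2a at E12.5 and than in GFP-negative cells at E10.5. At E12.5, however, miR-196b-5p was lower in motoneurons (238 TPM) than in V3 (297 TPM). miR-139-5p, at 202 ± 30.1 against 120 ± 19.9 RPM (SD, n = 2), missed the threshold (limma adjusted p = 0.0639 for a log2 fold change of 0.75), and passed it with median-of-ratios scaling (0.0203).

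Both Dlk1-Dio3 strands that were 4-fold higher than V2a at E12.5 were lower than GFP-negative cells at E10.5. miR-369-3p had 333 and 310 RPM in E10.5 motoneurons and 887 and 637 in GFP-negative libraries (log2 fold change -1.22, limma adjusted p = 0.006042). miR-299a-5p had 10.9 and 8.11 RPM against 36.1 and 39.0 (-1.89, limma adjusted p = 0.009347). The comparators of the 2 stages differ, and a change between stages was not tested.

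The miR-216 and miR-217 strands were lower than V2a at E12.5 but not lower than GFP-negative cells at E10.5. miR-217-5p had 1223 and 1186 RPM in E10.5 motoneurons and 558 and 718 in the GFP-negative ones, and rose by 0.93 on the log2 scale (limma adjusted p = 0.009461), with an adjusted p of 0.0596 without motoneuron replicate 1. miR-216b-5p had 795 and 1046 against 262 and 542 RPM and rose by 1.27 (limma adjusted p = 0.02708), with adjusted p-values of 0.0746 and 0.137 without motoneuron replicate 1 or 2 and 0.0537 when only miRNAs at 0 throughout were removed. miR-216a-5p, with a log2 fold change of 0.73 (limma adjusted p = 0.0763), and miR-216a-3p, with 0.48 (limma adjusted p = 0.198), missed the threshold. The first of these passed it with median-of-ratios scaling (0.0295). The miR-344e-3p strand was at 1.25 RPM or less in every E10.5 library and miR-344d-3p at 21.2, 10.1, 7.72 and 9.28 RPM, so neither was tested.

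miR-206-3p and miR-152-3p were lower in motoneurons in both comparisons. miR-206-3p had 71.3 and 8.95 RPM in E10.5 motoneurons against 1078 and 1145 (log2 fold change -5.37, limma adjusted p = 0.002649), while the muscle list summed to 372 and 156 RPM in motoneurons and 4223 and 3828 in GFP-negative cells. miR-152-3p had 122 and 107 RPM against 1334 and 1177 (-3.44, limma adjusted p = 0.0001655), while the mesenchymal list summed to 1571 and 424 RPM in motoneurons and 81413 and 94290 in GFP-negative cells. The part of muscle and mesenchymal cells in these E10.5 differences was not tested. miR-188-5p had 13.7 and 14.2 against 33.4 and 35.3 RPM (-1.24, limma adjusted p = 0.03567), and missed the threshold without motoneuron replicate 1 or 2 (0.0746 and 0.0646), with median-of-ratios scaling (0.0727) and when only miRNAs at 0 throughout were removed (0.113). miR-219b-3p was higher at E10.5, at 207 and 288 against 95.4 and 86.0 RPM (1.42, limma adjusted p = 0.006932).

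Of the abundant strands, miR-615-3p was higher in motoneurons than in GFP-negative cells at E10.5, at 43148 and 41785 against 21674 and 19952 RPM (log2 fold change 1.03, limma adjusted p = 0.001425), whereas at E12.5 it was lower than in V2a. miR-99a-5p (0.67, limma adjusted p = 0.0238) and miR-100-5p (0.66, limma adjusted p = 0.017) were higher. Without motoneuron replicate 2 the adjusted p-values were 0.162 and 0.12, and without replicate 1 that of miR-100-5p was 0.0658. miR-10a-5p (0.28, limma adjusted p = 0.241) and miR-10b-5p (0.08, limma adjusted p = 0.713) missed the threshold.

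**Figure D5:**
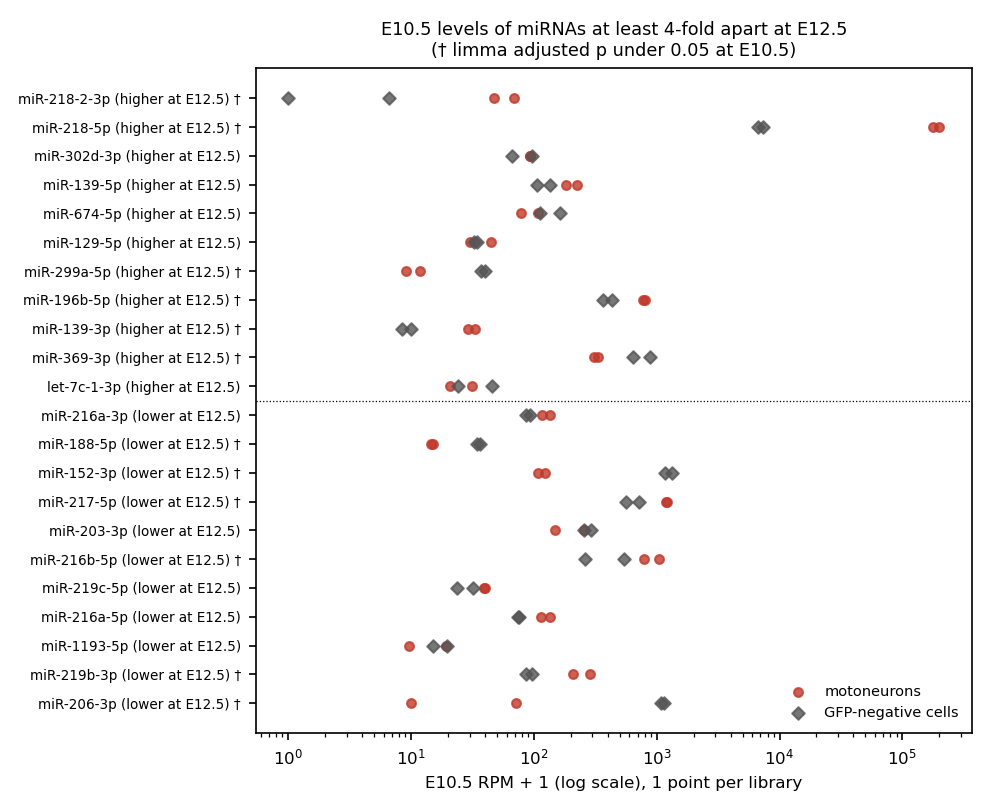
E10.5 level of each miRNA that was at least 4-fold apart at E12.5 and tested at E10.5, as RPM + 1 on a log axis, with 1 point per library for motoneurons (red circles) and GFP-negative cells (grey diamonds). The miR-218 strands and miR-196b-5p lie right of the GFP-negative points, and so do miR-217-5p and miR-216b-5p, which were lower than V2a at E12.5.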

How the data were processed

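Small RNA of 7 libraries was sequenced from papain-dissociated, fluorescence-sorted spinal cord cells (miRvana RNA, NEBNext libraries, HiSeq sequencing, per the labels' protocols). Bowtie2 is named without a version in the submitters' processing notes. No counter, build or annotation is named in the labels or headers. The authors deposited the E10.5 values as RPM. The unit of the deposited E12.5 table is not named, and it was read as FPKM, because its values times the RefSeq mature length were whole multiples of 1 constant per library (within 0.05 of a whole read in 79.9% of 804 low values in motoneurons, 74.1% of 783 in V2a and 81.2% of 730 in V3). That constant gave the depth, and 22 nt was used for the 61 of 510 miRNAs with no RefSeq length.

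FPKM of each E12.5 library were divided by their sum and multiplied by 1000000 to give TPM. The 2 tables were scaled separately, and no level was compared across them. Of the 510 miRNAs, 97 share reads with another entry. Sums over the shared entries were added after seeing the data. A pseudocount of 1 TPM and a fold of 4 defined calls. E10.5 groups were tested with limma 3.58.1 in R 4.3.3 (trend, two-sided, Benjamini-Hochberg, threshold 0.05) on log2(RPM + 1) for miRNAs that reached 15.2 RPM (10 reads in a library of median depth) in 2 or more libraries. The procedure was tested on simulated data. E10.5 depths were 493223 to 802731 reads.

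Named miRNAs were all those past 4-fold (values for the 15 largest at least), the 10 most abundant of each library, the 6 with the largest TPM difference in each direction, the leading members of each list, the 5 hairpins with the largest strand shift, and miR-218-5p. The members, the 31 lists and these rules were chosen with earlier results of these data known, and list entries were matched to the older names in the table. miRNA locations come from RefSeq and GENCODE on GRCm38. The number of sample columns not mapped was 0. Alternatives were other pseudocounts, scalings, abundance filters, folds, 1 strand per hairpin, sums over shared entries and, at E10.5, a replicate block and each replicate left out.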

Additional observations from a re-analysis of the deposited data

How the results depend on the processing

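At E12.5, 23 miRNAs were 4-fold higher and 30 lower in motoneurons. A pseudocount of 10 gave 7 and 8. A filter of 10 TPM on the mean gave 12 and 18, one of 100 TPM gave 8 and 9, and no filter gave 42 and 81. With 1 strand per hairpin, 13 were higher. Totals without the 5 most abundant miRNAs gave 60 lower. A fold of 2 gave 75 and 111, and a fold of 8 gave 9 and 11. TMM factors, which gave 28 higher and 20 lower, reversed which direction had more. All 274 alternative values of the 53 called miRNAs kept their direction, but only the sums over shared entries could have changed it. The other pseudocounts and scalings could not reverse a miRNA past 4-fold. Of the 53, 13 stayed past 4-fold under every scaling and pseudocount tried.

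At E10.5, 57 were higher and 151 lower in motoneurons. Leaving out each replicate gave 27 to 48 higher and 106 to 125 lower, with 29 higher without motoneuron replicate 1 and 27 without motoneuron replicate 2, and such a fit assumes that the lone library varies like the other group. With only miRNAs at 0 throughout removed, 34 were higher. With the replicate number as a block, 67 were higher and 162 lower. Same-numbered libraries had a correlation of deviations of 0.261 over 492 miRNAs, but the labels do not say that the numbers pair the libraries. No paired analysis was possible at E12.5 because each population has 1 library. Depth limits the E12.5 strands to a floor of 3 reads, or 0.844 TPM in motoneurons and 0.667 in V2a.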

Other observations

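miRNAs with numbers of 5000 and above in their names, a group chosen after its values were seen, were mostly lower in the motoneuron library. Of 102 such miRNAs among the 510, 2 were 4-fold higher and 14 lower, and 12 were 2-fold higher and 52 lower, with a median log2 ratio of -1.03. The other 408 had 21 higher and 16 lower at 4-fold and a median of -0.01. The sum over the 102 went the other way, at 18849 TPM in motoneurons and 10990 in V2a, and most of it in motoneurons was miR-6406 (14377 TPM). Without miR-6406 the group summed to 4472 TPM in motoneurons and 7141 in V2a. The 14 lower ones reached at most 195.8 TPM in V2a and 7.43 RPM in any E10.5 library, and 5 of them were at 0 in all 4 E10.5 libraries. Of the 14, all but miR-6396 (12.3 TPM) were under 10 TPM in motoneurons, so the abundance rule fixed their direction. Both 4-fold higher ones, miR-6948-3p and miR-7050-5p, were under 10 TPM in V2a. The 102 were not counted by whether they reached 10 TPM in both libraries, so how far the rule set their median is not known.

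miR-6406 was among the largest differences in TPM, at 14377 in motoneurons, 3849 in V2a and 1257 in V3. At E10.5 it had 124.6 and 1174 RPM in the motoneuron replicates and 111 and 641 in the GFP-negative ones, so within a group its level varied more than 5-fold.

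The miR-23b-5p, miR-674-5p and miR-3473d strands were low in both populations, and the seed CACUGAG, shared by miR-674-5p and miR-3473d, took 67.8% of its level from miR-674-5p in motoneurons, 8.55% in V2a and 22.4% in V3.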
